A study of Mus musculus with 7 samples.

Results

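The pan-endocrine transcription factors described here are 8 genes, Pax6, Isl1, Neurod1, Neurog3, Rfx3, Rfx6, Mlxipl and Pax4, in sorted mouse alpha cells with and without a deletable Nkx2-2 gene. They were chosen by symbol, with no cutoff on their values but with earlier results of these data known. All 8 were found among the 55536 genes of the count table. Alpha cells are the glucagon-secreting cells of the pancreatic islet, and Nkx2-2 encodes a homeodomain transcription factor of islet cells. The comparison asks how the loss of that factor changes gene expression in alpha cells in vivo.

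Control cells carried Nkx2.2+/+, Gcg-iCre and Rosa26:tdTomato (4 libraries). Knockout (KO) cells carried Nkx2.2fl/fl with the same Gcg-iCre and Rosa26:tdTomato (3 libraries), so Cre and the red reporter were common to both groups. Gcg-iCre is made from the glucagon gene, so recombination and sorting by tomato fluorescence follow present or past glucagon expression. The islets came from mice of a strain spelled C57B1/6J in the design text, which also spells the reporter locus Rosa25, and the labels used here give no age or sex. Nothing in them says whether each library came from a separate mouse, so p-values measure the spread between these libraries, which may be technical. Control libraries are numbered 1 to 4 and KO libraries 1 and 2, and the KO column whose number matches no KO title is called the unnumbered KO library.

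Pan-endocrine factors are made in most or all hormone cells of the islet and are needed for those cells to form or to keep working. Neurog3 starts the endocrine programme in progenitors and switches on Neurod1, Pax4 and Rfx6, among others, while Pax6, Isl1, Neurod1 and the Rfx factors remain active in mature cells. Mlxipl (ChREBP) is a glucose-responsive factor that works as a dimer with Mlx, and Pax4 favours the beta and delta cell fates during development.

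Sequence upstream of 2 members is shown because Isl1 was the 1 member that passed the test and Neurog3 the member with the largest fitted fold change among those tested. The 250 bases before the RefSeq start of each gene (GRCm38.p6) are given, with capitals marking CAGNTG, an E-box, the type of site bound by the Neurod1 and Neurog3 family. The Isl1 stretch is chr13:116309689-116309938 on the minus strand, and the Neurog3 stretch is chr10:62132840-62133089 on the plus strand.
Isl1: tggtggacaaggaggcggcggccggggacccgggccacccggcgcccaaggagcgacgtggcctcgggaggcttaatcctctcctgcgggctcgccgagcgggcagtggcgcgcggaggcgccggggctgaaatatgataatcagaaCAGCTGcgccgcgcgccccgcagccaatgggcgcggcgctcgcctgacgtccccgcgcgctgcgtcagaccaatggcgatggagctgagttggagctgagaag
Neurog3: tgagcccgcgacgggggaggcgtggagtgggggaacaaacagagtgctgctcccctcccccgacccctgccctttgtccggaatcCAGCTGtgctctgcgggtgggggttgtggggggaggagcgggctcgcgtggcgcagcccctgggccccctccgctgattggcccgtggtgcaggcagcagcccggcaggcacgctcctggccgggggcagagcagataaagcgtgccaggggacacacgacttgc
Each stretch held 1 such E-box, at base -103 from the Isl1 start and -165 from the Neurog3 start, and both had a GC content of 71.2%. RefSeq windows were found for 7 of the 8 members, 9 windows in all, and not for Pax4. Either strand was searched, and CAGNTG occurred in 44.8% of 32851 such stretches genome-wide. The NK2 homeodomain motif TNAAGTG, the kind of site bound by Nkx2-2, occurred in 10.1% of the stretches and in 0 of the 9 member windows. The upstream start of Pax6 (chr2:105668646-105668895, plus strand) held GTTGCC, a partial site of Rfx factors, which overlapped a CCAAT box by 1 base. That motif occurred in 10.4% of the stretches and in no other member window. These matches describe the letters of the windows and say nothing about binding.

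Total counts ran from 45483504 to 72456557 per library. Control 4 and the unnumbered KO library were the deepest and stood apart, with limma sample quality weights of 0.278 and 0.414 against 1.01 to 2.82 in the other 5. For 22 genes with at least 90% of their exon length shared with opposite-strand exons, the median deviation from a gene's mean over the 7 libraries was -7.70 log2 units in control 4 and 1.17 to 1.32 in the others. For 2891 genes with 1% to 20% of exon length so covered, the median in control 4 was -0.12, beside -0.03 for 8776 genes with none. Neurog3 (16.3%), Neurod1 (5.64%) and Mlxipl (4.24%) have such overlap, and the other 5 members have none. All 7 libraries held alpha cell transcripts, with 10 alpha markers at 12.0% to 14.2% of the control counts and 6.15% to 7.74% of the KO counts. Most of that sum was Gcg, the glucagon gene, at 11.4% to 13.5% of the control and 5.87% to 7.39% of the KO counts. Markers of other islet cells were present too: 9 beta markers took 0.646% to 1.21% of the control and 1.10% to 1.81% of the KO counts. Delta markers (5 genes) took 0.377% to 0.696% and 0.643% to 1.18%, and gamma markers (4 genes) 0.588% to 1.01% and 1.65% to 2.16%. In bulk RNA, fewer cells of a type and less RNA per cell cannot be told apart.

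Nkx2-2, the targeted gene, was lower in every KO library than in every control, as for 5.88% of the genes tested. Its normalized counts, which are counts divided by DESeq2 size factors, were 8596, 11199, 12297 and 9782 in controls 1 to 4. KO 1 had 7758, KO 2 had 7534 and the unnumbered KO library had 7694. DESeq2 put its log2 fold change, KO over control, at -0.45 (standard error, SE, 0.13; adjusted p 0.0223), and edgeR gave 0.152 as the adjusted p. Leaving out any 1 of control 2, control 3 or the 3 KO libraries moved the DESeq2 value above 0.05, to between 0.0691 and 0.155. The labels used here do not say which part of the gene is floxed, so these whole-gene counts do not measure deletion directly.

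Of the 8 members, Isl1 alone had an adjusted p under 0.05 in DESeq2 (Benjamini-Hochberg over all genes), and it rose. For comparison, 4.39% of the 18023 genes with an adjusted p were called in either direction with 2.19% called higher and 2.2% lower. The others, Pax6, Neurod1, Neurog3, Rfx3, Rfx6 and Mlxipl, did not pass, and Pax4 had too few counts for an adjusted p. In the edgeR quasi-likelihood test 0 members passed, where 1.05% of 19310 genes did. At an unadjusted p under 0.05 there was 1 member, Isl1, in DESeq2 and likewise in edgeR, where 12.0% and 10.5% of all genes tested reached it, and limma voom with sample weights called the same gene. The median log2 fold change over the 7 members with an adjusted p was 0.14, beside 0.01 over all genes tested.

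**Figure D1:**
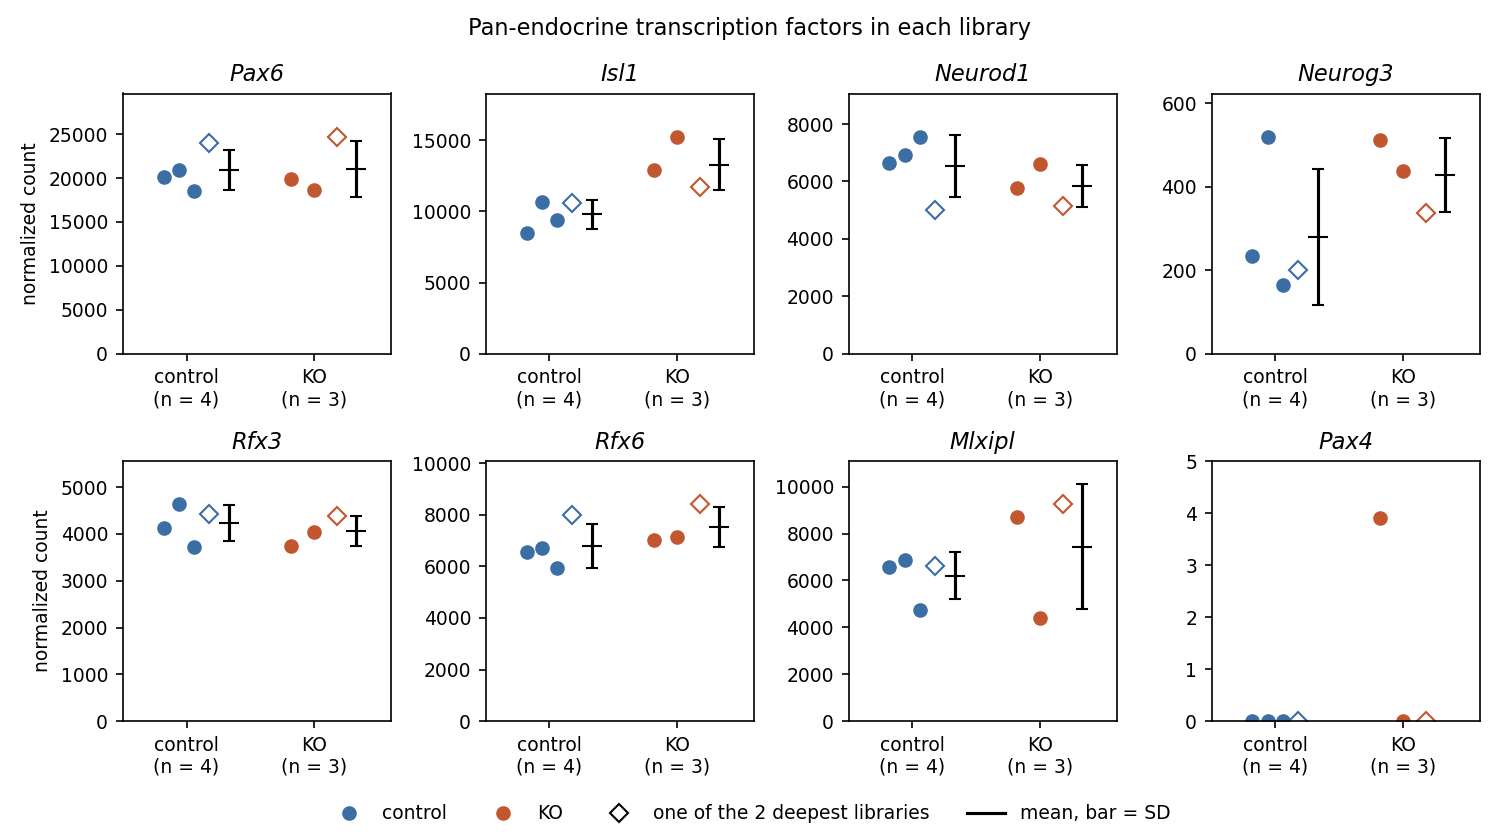
Normalized counts (linear axes from 0) of the 8 members in each library, by group. Points are libraries, open diamonds are the 2 deepest libraries, and bars are mean and SD except for Pax4, which was at 0 in 6 of 7 libraries. Isl1 is the one member whose 3 KO libraries all lie above the 4 controls.

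Isl1 (ENSMUSG00000042258, chromosome 13, 116298281 to 116309689, minus strand, GRCm38) encodes a LIM-homeodomain factor needed for the maturation and survival of islet cells. Controls 1 to 4 had 8514, 10661, 9413 and 10586 normalized counts of Isl1. KO 1 had 12925, KO 2 had 15239.8 and the unnumbered KO library had 11706. The lowest KO library lay above the highest control, a separation in this direction that 5.99% of the genes tested showed. Controls averaged 9793 ± 1027 (SD, n = 4) and KO libraries 13290.2 ± 1795 (SD, n = 3), or 136% of the control mean. DESeq2 put the log2 fold change at 0.44 (SE 0.13, 95% interval 0.18 to 0.70; adjusted p 0.0230), and edgeR gave an adjusted p of 0.169.

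The size of the Isl1 rise held across fits more than its call. The log2 fold change lay between 0.33 and 0.52 in the 7 DESeq2 fits that each left out 1 library. The adjusted p went above 0.05 without control 1 (0.127), control 3 (0.121), KO 1 (0.144) or KO 2 (0.243). Without the 2 deepest libraries the log2 fold change of Isl1 was 0.56, with an adjusted p of 0.000391. Between those 2 deep libraries alone the difference was 0.15 log2 units. Isl1 is made by all islet hormone cell types, and the part of the beta, delta and gamma transcripts given above in its change was not tested.

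The LIM-homeodomain relatives and cofactors of Isl1 (15 genes, 9 with an adjusted p in DESeq2) held no call in DESeq2 or edgeR. At an unadjusted p under 0.05 there were 3 in DESeq2 and 2 in edgeR, where 12.0% and 10.5% of all genes tested reached it. Ldb1, the adaptor through which LIM-homeodomain factors form complexes, averaged 5293 ± 126 (SD) normalized counts over controls and 4985 ± 51.9 over KO libraries. All 3 KO libraries of Ldb1 lay below the 4 controls, as for 5.88% of the genes tested, at a log2 fold change of -0.09 (adjusted p 0.883). Lmo3, a LIM-only gene whose product can compete for Ldb1, averaged 133 ± 49.6 over controls and 284 ± 80.5 over KO libraries. Its adjusted p was 0.0519 in DESeq2, 0.230 in edgeR and 0.0300 in limma voom. Of 6 other LIM-homeodomain genes, Lmx1b and Lhx1 had at least 96.7 normalized counts in every library, and Isl2, Lhx2, Lhx3 and Lmx1a at most 9.44.

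Neurod1 (ENSMUSG00000034701, chromosome 2, 79452521 to 79456751, minus strand) and Neurog3 (ENSMUSG00000044312, chromosome 10, 62133090 to 62134763, plus strand) encode related basic helix-loop-helix (bHLH) factors. Neurod1 acts in mature islet cells, and Neurog3 is best known from progenitors. Controls 1 to 4 had 6640.5, 6934, 7552 and 5015.5 normalized counts of Neurod1. KO 1 had 5757, KO 2 had 6605 and the unnumbered KO library had 5148. The groups overlapped, and control 4 and the unnumbered KO library were the lowest in their groups. Neurod1 had a fitted log2 change of -0.16 (95% interval -0.47 to 0.14, adjusted p 0.901 by DESeq2, 0.849 by edgeR).

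Neurog3 was present at low counts in all 7 libraries, from 125 to 522 raw counts. Controls 1 to 4 had 234, 519, 163 and 199 normalized counts of it. KO 1 had 510.4, KO 2 had 437 and the unnumbered KO library had 336. Control 2 was above all 3 KO libraries, and the other 3 controls were below them. Controls averaged 279 ± 163 (SD, n = 4) and KO libraries 428 ± 87.8 (SD, n = 3). Neurog3 had a fitted log2 change of 0.62 (SE 0.38, 95% interval -0.13 to 1.36; adjusted p 0.617 by DESeq2, 0.701 by edgeR). Without control 2 it was 1.10, and the DESeq2 adjusted p was 0.00297. This was the widest interval among the 7 members tested, and the control standard deviation was 58.3% of the mean.

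The ratio of Neurod1 to Neurog3, per kilobase of exon, was 17.4, 8.20, 28.3 and 15.4 from control 1 to control 4. The KO libraries gave 6.92, 9.27 and 9.41, so control 2 again fell within the KO range. Neurod2, Neurod4, Neurog1, Neurog2 and Atoh1 had at most 5.78 normalized counts in any library.

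**Figure D2:**
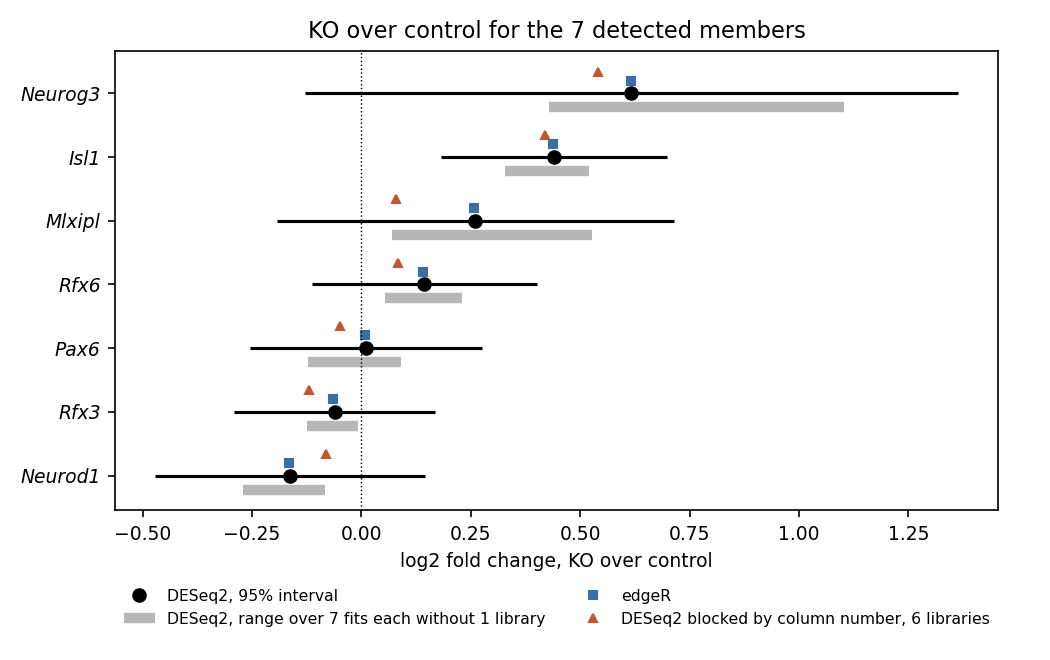
Log2 fold change of KO over control (linear axis) for the 7 members with an adjusted p. Black points and lines are the DESeq2 value with its 95% interval, grey bars the range over 7 fits each without 1 library, squares edgeR, and triangles DESeq2 blocked by column number. The interval of Isl1, 0.18 to 0.70, is the one that leaves out 0.

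Genes that pair with or inhibit bHLH factors were followed with their relatives in 1 list of 13 genes. Of these, 8 had an adjusted p and 3 were called in DESeq2, where 4.39% of all genes tested were. The E proteins Tcf3, Tcf4 and Tcf12, obligate partners of Neurod1 and Neurog3, had log2 fold changes of -0.07, 0.19 and -0.06 (adjusted p from 0.830 to 0.999). The Id genes encode inhibitors that sequester E proteins, and 3 of the 4 passed DESeq2. Id3 averaged 326 ± 98.1 normalized counts in controls (SD, n = 4) and fell to 96.3 ± 21.6 (SD, n = 3), which is -1.76 on the log2 scale (SE 0.33). DESeq2 gave an adjusted p of 1.3e-05 and edgeR one of 0.0460, and leaving out any 1 of the 7 libraries kept the DESeq2 call.

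Id1 fell by 1.38 on the log2 scale (adjusted p 0.00508 in DESeq2, 0.143 in edgeR). Without control 3 the DESeq2 value was 0.0663, and without the unnumbered KO library it was 0.0502. The fit blocked by column number, described under the processing, gave 0.05002, just above the threshold. Id4 rose, from 146 to 535 normalized counts across the controls to between 675 and 1082 across the KO libraries. That is 1.40 on the log2 scale (SE 0.36; adjusted p 0.00487 by DESeq2, 0.152 by edgeR), and without KO 2 the DESeq2 adjusted p was 0.105. Id2 had -0.31 (adjusted p 0.681). The Id genes thus moved in both directions.

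Pax6 (ENSMUSG00000027168, chromosome 2, 105668900 to 105697364, plus strand) encodes a paired-homeodomain factor that activates the glucagon gene. Controls 1 to 4 had 20109.8, 20921, 18556 and 23975 normalized counts of Pax6. KO 1 had 19869.6, KO 2 had 18604 and the unnumbered KO library had 24693.5. The groups overlapped almost entirely, and the 2 deepest libraries were the highest. Pax6 had a fitted log2 change of 0.01 (95% interval -0.25 to 0.28; adjusted p 0.999 by DESeq2, 0.998 by edgeR). This interval leaves out a change of 1 log2 unit in either direction, and does not show equality.

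Pax4 (ENSMUSG00000029706, chromosome 6, 28442334 to 28449353, minus strand) had 0 counts in 6 libraries and 4 counts in KO 1. In KO 1 that is 0.0727 CPM, counts scaled to library size (95% exact Clopper-Pearson interval 0.0198 to 0.186, counting error only). For the 6 libraries at 0 the same method gave upper limits of 0.0509 to 0.0811 CPM. Both mates of a fragment appear to have been counted, as described under the processing, so these intervals are likely too narrow. A floor of 3 counts per library was 0.0414 to 0.0660 CPM in these 6. No fold change is given for Pax4 because both groups lay at or near that floor. The other 7 Pax genes were at most 15.7 normalized counts in any library, and none received an adjusted p. Pax6 was thus the one of 9 Pax genes above 15.7 normalized counts.

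A list of 9 alpha cell genes known to depend on Pax6 was read beside it. DESeq2 called 1 higher and 2 lower, where 4.39% of all genes tested were called in either direction. The list median was -0.08, and edgeR called 1. Gcg, the glucagon gene, fell by 1.04 on the log2 scale (adjusted p 6.93e-10 in DESeq2, 0.175 in edgeR).

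Maf, a gene of a basic leucine zipper factor, rose from a low level, from between 9.08 and 36.6 normalized counts across the controls to between 57.8 and 163 across the KO libraries. That is 2.82 on the log2 scale (SE 0.64), and the adjusted p was 0.000614 by DESeq2, 0.0809 by edgeR and 0.0607 by DESeq2 without KO 2. Pcsk2, the convertase that releases glucagon, and Scg5, its chaperone, had -0.06 (adjusted p 0.999) and -0.22 (0.417). Without the 2 deepest libraries Scg5 was also called. The part of Pax6 in the values of these genes was not tested.

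Rfx6 (ENSMUSG00000019900, chromosome 10, 51677756 to 51730432, plus strand) and Rfx3 (ENSMUSG00000040929, chromosome 19, 27761721 to 28011166, minus strand) encode winged-helix factors. Rfx6 is needed for islet cell formation and secretion, and Rfx3 for cilia and for endocrine differentiation. Rfx6 had 6571, 6729.97, 5939 and 7983 normalized counts in controls 1 to 4. KO 1 had 7017, KO 2 had 7139 and the unnumbered KO library had 8405. Control 4 lay among the KO values, the other 3 controls were below all of them, and the 2 deepest libraries were again the highest in their groups. For Rfx6 the fitted log2 change was 0.14 (95% interval -0.11 to 0.40, adjusted p 0.882 by DESeq2, 0.837 by edgeR).

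Rfx3 had 4138, 4633, 3732 and 4424 normalized counts in controls 1 to 4. It had 3744, 4041 and 4384 in the KO libraries, all inside the control range. Rfx3 had a fitted log2 change of -0.06 (95% interval -0.29 to 0.17, adjusted p 0.993 by DESeq2, 0.945 by edgeR), and 0.04 when libraries were scaled by their totals. Over all genes, that scaling shifts the median by 0.10. Among the 7 members tested, Rfx3 had the smallest relative spread, 9.21% of the mean in controls and 7.90% in KO.

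Per kilobase of exon, Rfx6 made up 51.8% ± 2.09 (SD, n = 4) of the summed level of the 8 Rfx genes in controls and 55.6% ± 1.06 (SD, n = 3) in KO. Rfx3 took 11.7% ± 0.851 and 10.9% ± 0.398, close to Rfx5 with 10.8% ± 2.43 and 10.4% ± 0.784. The ratio of Rfx6 to Rfx3 ranged from 4.00 to 4.96 over the controls and from 4.86 to 5.27 over the KO libraries. Control 4 lay between the KO values, and the difference in ratio was not tested. Merged exon was 11034 bases for Rfx3 and 4010 for Rfx6, so the size of this ratio and of the shares depends on these lengths. None of the 8 other Rfx genes and Rfx partners was called in DESeq2, edgeR or limma voom, and 0 had an unadjusted p under 0.05 in DESeq2 or edgeR.

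**Figure D3:**
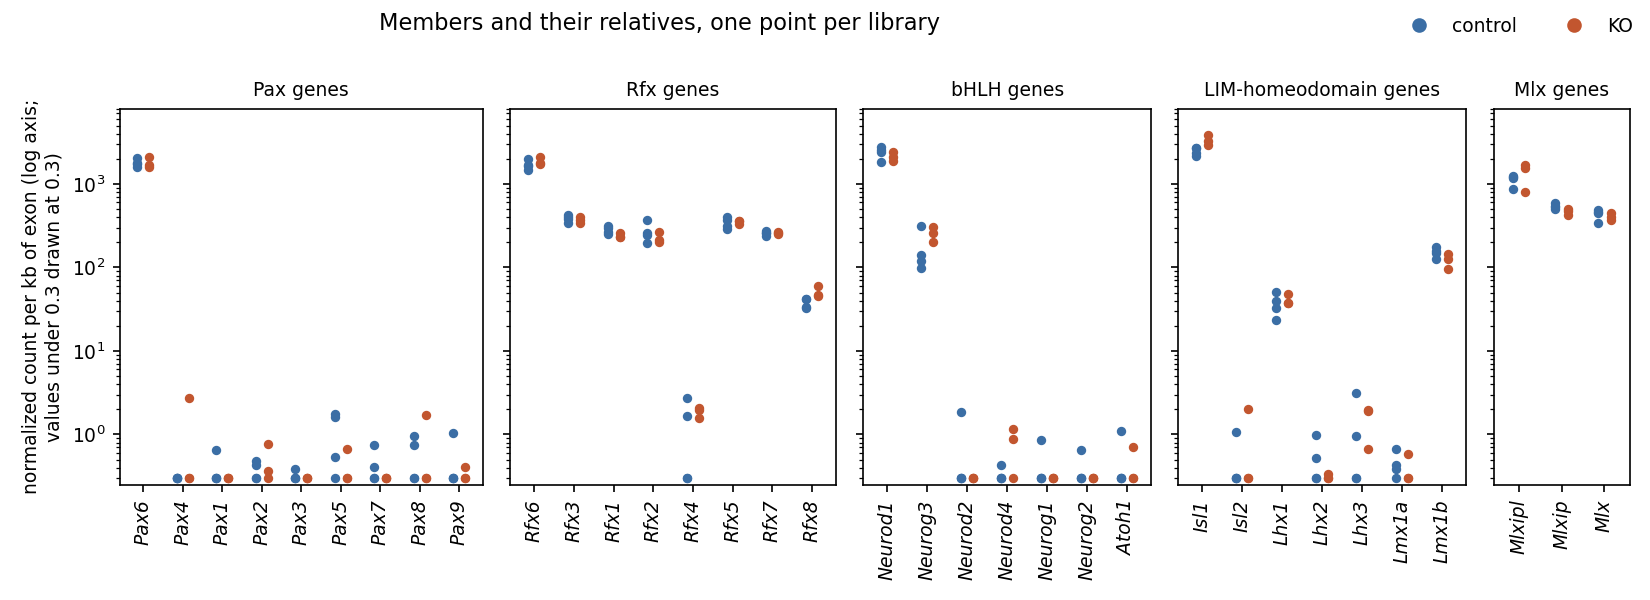
Normalized counts per kilobase of exon (log axis) for the members and their family relatives, 1 point per library. Values under 0.3 are drawn at 0.3. Pax6 and Isl1 stand far above their relatives, whereas most other Rfx genes were detected beside Rfx6, and Mlxip and Mlx beside Mlxipl.

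Known targets of the Rfx factors were read in a ciliary and a secretion list. Of 15 ciliary genes, 14 had an adjusted p and none passed in DESeq2, edgeR or limma voom. The count at an unadjusted p under 0.05 was 1 in DESeq2 and 1 in edgeR, beside 12.0% and 10.5% of all genes tested. The median log2 fold change of the ciliary genes was -0.01. Of 9 secretion genes known to depend on Rfx6, DESeq2 called Cacna1d lower and Glp1r higher, beside 4.39% of all genes tested. None was called in edgeR, where 5 had an unadjusted p under 0.05, beside 10.5% of all genes tested. These 9 genes had a median log2 change of 0.36.

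Cacna1d, an L-type calcium channel subunit, averaged 10304.9 ± 2429 normalized counts in controls (SD, n = 4) and fell to 5714 ± 1245 (SD, n = 3). That is -0.85 on the log2 scale (SE 0.19; adjusted p 0.000754 by DESeq2, 0.100 by edgeR), and leaving out any 1 library kept the DESeq2 call. Glp1r, the GLP-1 receptor and a gene of beta and delta cells, stood at 0.66 on the log2 scale (adjusted p 0.0441 in DESeq2, 0.277 in edgeR). Its DESeq2 adjusted p was 0.626 without KO 1 and 0.160 without control 3. In the fit blocked by column number 4 of the 9 genes were called, with Cacna1c and Slc2a2 added, both higher. The same 4 were called in limma voom and in DESeq2 without the 2 deepest libraries. Over all genes these fits called 1009 of 19183, 836 of 19310 and 880 of 15999 genes tested, in that order. Slc2a2 and Glp1r are also genes of beta cells. The summed beta marker shares of the groups overlapped, as given above, and the part of beta cell transcripts in these values was not tested.

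Mlxipl (ENSMUSG00000005373, chromosome 5, 135089890 to 135138382, plus strand) varied most among the KO libraries of the 7 members tested, with a standard deviation of 35.8% of the mean against 15.8% in controls. Controls 1 to 4 had 6586, 6877, 4748 and 6636 normalized counts of it. KO 1 had 8699, KO 2 had 4381 and the unnumbered KO library had 9246. KO 2 was the lowest of all 7 libraries, and the other 2 KO libraries were the highest. Mlxipl had a fitted log2 change of 0.26 (SE 0.23, 95% interval -0.19 to 0.71; adjusted p 0.864 by DESeq2, 0.865 by edgeR). Without KO 2 it was 0.53, with an adjusted p of 0.0482.

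Mlx and Mlxip varied less between KO libraries, with standard deviations of 9.62% and 8.55% of the mean. Mlx, its obligate partner, averaged 868 ± 129 normalized counts over controls (SD, n = 4) and 813 ± 78.2 over KO libraries (SD, n = 3). Mlxip, the paralog also called MondoA, had 4522 ± 311 and 3892 ± 333. All 3 KO libraries of Mlxip lay below the 4 controls, as for 5.88% of the genes tested, at a log2 fold change of -0.22 (adjusted p 0.417). Of 12 genes of the Max-like network, DESeq2 called 1, beside 4.39% of all genes tested. It was Myc, at 0.89 (SE 0.27, adjusted p 0.0237). None of the 12 passed in edgeR, where 2 had an unadjusted p under 0.05, beside 10.5% of all genes tested. The DESeq2 adjusted p of Myc rose to between 0.0565 and 0.200 without control 1, control 3, KO 1 or KO 2.

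Of 12 glucose-responsive targets of Mlxipl, DESeq2 called Arrdc4 lower and Scd2 higher, beside 4.39% of all genes tested. None was called in edgeR, where 4 had an unadjusted p under 0.05, beside 10.5% of all genes tested. Arrdc4, an arrestin-domain gene, stood at -0.95 on the log2 scale (SE 0.25; adjusted p 0.00508 by DESeq2, 0.159 by edgeR). Without control 4 the DESeq2 value was 0.146, without the unnumbered KO library it was 0.0511, and without both of these, the deepest, it was 0.410. Scd2, a fatty acid desaturase gene, had 0.70 (SE 0.20, adjusted p 0.0149 by DESeq2, 0.169 by edgeR), and the DESeq2 value was 0.0708 without KO 1 and 0.231 without KO 2. In the fit blocked by column number Pklr, the pyruvate kinase gene, was called higher as well. Txnip, the best known target, ranged from 25371 to 46346 normalized counts across the controls. KO 1 had 38403 of Txnip, KO 2 had 33196 and the unnumbered KO library had 29051. KO 2, the library with the least Mlxipl, was in the middle of the KO values of Txnip, and a link between these genes was not tested.

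Levels can be compared between genes only per length. Per kilobase of exon (all annotated exons of a gene merged), Isl1 led in controls with 2474 ± 259 normalized counts (SD, n = 4), followed by Neurod1 with 2395 ± 397, whose range overlapped with Pax6. Isl1 and Neurod1 exchanged places between libraries, with Isl1 above Neurod1 in 2 of 4. Pax6 followed with 1786 ± 195 and Rfx6 with 1697 ± 213, ranges that overlapped although Pax6 was the higher in 4 of 4 controls. Mlxipl had 1122 ± 178, Rfx3 384 ± 35.3 and Neurog3 167 ± 97.1, each below the one before it without overlap. Merged exons count long rare isoforms in full. The values of Pax6, with 11694 bases of merged exon, and Rfx3, with 11034, are therefore likely low estimates. Among 22028 protein-coding genes, Isl1 ranked 375th, Neurod1 389th, Pax6 596th, Rfx6 645th, Mlxipl 1165th, Rfx3 4438th and Neurog3 7696th by this measure in controls.

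In KO libraries Isl1 was highest in 3 of 3, at 3357 ± 453 per kilobase, and did not overlap with Neurod1 at 2139 ± 268. Neurod1, Rfx6 (1875 ± 192), Pax6 (1801 ± 275) and Mlxipl (1344 ± 481) each overlapped with the next. The per-kilobase ratio of Isl1 to Neurod1 was 0.884, 1.06, 0.859 and 1.45 from control 1 to control 4. The KO libraries gave 1.55, 1.59 and 1.57. The groups did not overlap, and control 4 came closest to the KO values. Isl1 counts by themselves also separated the groups, as 5.99% of the genes tested did in that direction. The difference in this ratio was not tested.

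**Figure D4:**
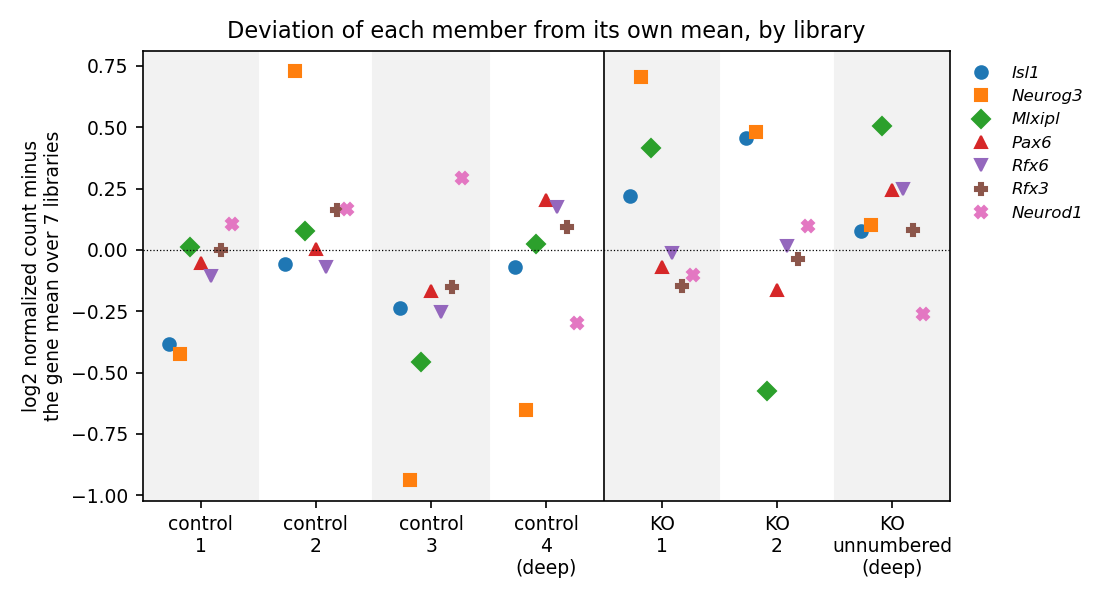
Log2 normalized count of each member minus its mean over the 7 libraries (linear axis), by library. Pax6 and Rfx6 are highest, and Neurod1 lowest, in control 4 and the unnumbered KO library, the 2 deepest.

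Variation that the groups do not explain was shared among members. In control 4 against the other controls, Pax6 differed by 0.27, Rfx6 by 0.32 and Neurod1 by -0.49 log2 units. In the unnumbered KO library against the other KO libraries they differed by 0.36, 0.25 and -0.26, where the median over all genes tested was -0.03 in both comparisons. Across the 7 libraries, Pearson's r of log2 normalized counts was 0.85 between Pax6 and Rfx6, and -0.93 between Neurod1 and Rfx6. It was -0.84 between Neurod1 and Pax6 and 0.67 between Isl1 and Neurog3. The 7 points share depth and library quality, so these coefficients are descriptions. In the 5 remaining libraries the log2 fold changes were -0.05 for Pax6, -0.19 for Neurod1, 0.63 for Neurog3, -0.10 for Rfx3, 0.14 for Rfx6 and 0.10 for Mlxipl. None of these 6 had an adjusted p under 0.05 there.

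Genes with the most similar pattern were found by Pearson's r over the 7 libraries among 7913 or 7914 protein-coding genes without opposite-strand exons. For Isl1 they were Frat1 (r 0.98), Cdh11 (0.98) and Nlgn3 (0.97). Frat1, a positive regulator of Wnt signalling, stood at 1.30 on the log2 scale (adjusted p 0.000543 in DESeq2), and Cdh11, a cadherin gene, 1.65 (0.000211). Nlgn3, a neuroligin gene, had 0.64 and did not pass (0.366). For Pax6 they were Esyt2, Ubn2 and Srrm3, and for Neurod1 Hikeshi, Abhd17a and Ppm1a, with r between 0.98 and 0.99. Neurog3 was matched by Crmp1, Foxred2 and Tspan33, Rfx3 by Arid2, Syt2 and Gmcl1, Rfx6 by Mon2, Fry and Nfat5, and Mlxipl by Tmem260, Sec22a and Vac14. High coefficients are common when so many genes are searched over 7 points.

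Upstream of Neurog3, the Notch pathway represses it in progenitors through Hes1. Of 15 Notch pathway genes, 12 had an adjusted p and 1 was called in DESeq2, beside 4.39% of all genes tested. It was Notch2, at 0.57 (SE 0.18, adjusted p 0.0347). Its adjusted p was above 0.05 in 6 of the 7 fits without 1 library, from 0.0512 to 0.319, the exception being the fit without control 2, and 0.0542 without the 2 deepest libraries. No Notch pathway gene was called in edgeR, where 1 had an unadjusted p under 0.05, beside 10.5% of all genes tested. Hes1 had 316 ± 122 (SD, n = 4) and 270 ± 60.2 (SD, n = 3) normalized counts (log2 fold change -0.23, adjusted p 0.979).

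A further list held 45 other islet lineage factors, 42 of which had an adjusted p. DESeq2 called 8 of these, 1 higher and 7 lower, where 4.39% of all genes tested were called in either direction. In edgeR 1 was called, where 1.05% of all genes tested were. The fit blocked by column number called 11, 4 higher and 7 lower, limma voom 10, and DESeq2 without the 2 deepest libraries 11. Over all genes these fits called 1009 of 19183, 836 of 19310 and 880 of 15999 genes tested, in that order. The list median of 0.06 lay near the median of all genes, 0.01. Besides Maf and Nkx2-2, Etv1 fell by 0.51 (adjusted p 0.000617), Irx1 by 0.73 (0.00312), Fev by 0.65 (0.00723), Myt1 by 0.40 (0.0240) and Irx2 by 0.51 (0.0292) on the log2 scale in DESeq2. Irx1 and Irx2 are alpha cell homeobox genes, Fev is an ETS factor of endocrine progenitors and serotonin cells, Etv1 is a further ETS factor and Myt1 is a zinc finger factor downstream of Neurog3.

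Etv1 kept the DESeq2 call whichever of the 7 libraries was left out. Irx1 lost it without KO 1 (0.0509), and Fev without control 3, KO 1 or the unnumbered KO library (0.0519 to 0.0946) and without the 2 deepest libraries together (0.0596). Irx2 and Myt1 passed in 2 of the 7 fits each, with values up to 0.202 and 0.263. Leaving out 1 library gave from 3 calls in the list, without KO 1, to 10.

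**Figure D5:**
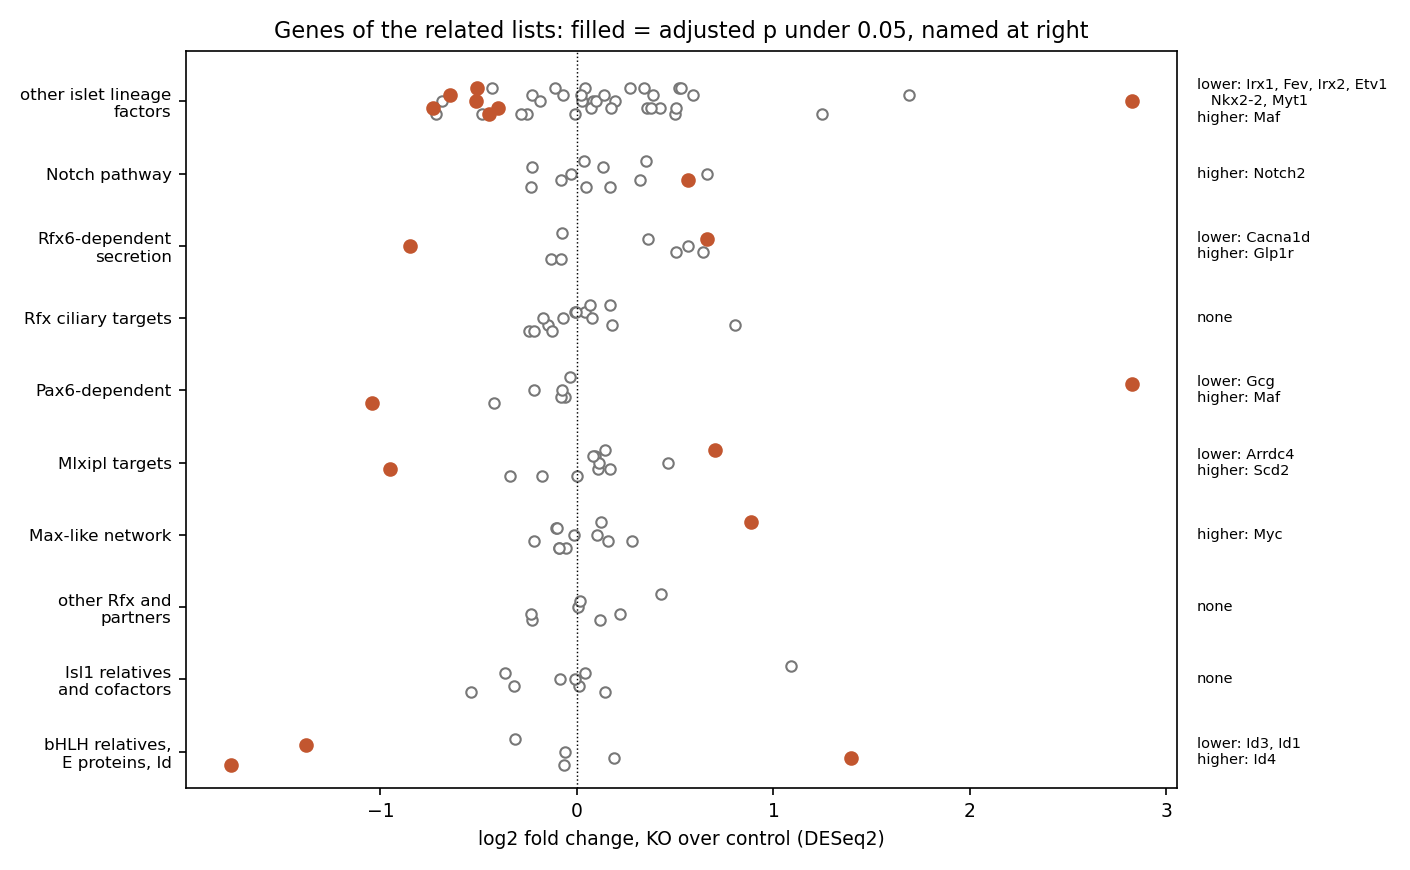
Log2 fold change of KO over control (linear axis) for genes with an adjusted p in 10 lists of relatives, partners and targets. Each point is a gene and filled points passed DESeq2. Genes not reported here are not drawn. Most partners and targets lie near 0, and the called islet lineage factors drawn are lower except Maf.

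Cell type markers gave the following counts in DESeq2, where 4.39% of all genes tested were called, 2.19% higher and 2.2% lower. Of 10 alpha cell markers 7 fell, with a median of -0.72, among them Gcg, Irx1, Irx2, Ttr (-1.90, adjusted p 5.85e-21), Slc38a5 (-2.14, 7.28e-29) and Slc7a2 (-0.41, 0.00221, but 0.0836 without KO 1). Iapp of 9 beta markers rose (0.93, 0.00151, and above 0.05 without KO 1 or the unnumbered KO library, 0.0847 and 0.112). Rbp4 (1.55, 0.0130) and Ffar4 (0.49, 0.0298) of 5 delta markers rose, as did Ppy (1.51, 2.59e-08) and Pyy (1.01, 6.09e-07) of 4 gamma markers. The median log2 fold change was 0.39 for beta, 0.64 for delta and 0.53 for gamma markers, beside 0.01 over all genes tested. It was positive for 9 of 9 beta, 5 of 5 delta and 3 of 4 gamma markers, called or not. Rbp4 and Ffar4 lost the call in 4 and 6 of the 7 fits without 1 library, with values up to 0.185 and 0.320. Mboat4 of 5 epsilon and enterochromaffin markers rose (3.72, 0.000189, and 0.130 without control 4), Spp1 of 6 duct markers rose (0.65, 0.0252, up to 0.318 without 1 library and 0.0690 when blocked by column number) and C1qa of 6 leukocyte markers fell (-0.82, 0.0116, up to 0.105). Slc38a5, Ttr and Ppy were among the markers that passed in edgeR. The fit blocked by column number called 4 of 9 beta markers (Iapp, Mafa, Slc2a2 and Ucn3), Ghrl beside Mboat4, Sox9 in place of Spp1, and 4 acinar and 3 mesenchymal markers, all of them higher. That fit called 1009 of 19183 genes tested over all genes. It leaves out control 3, the control with the most acinar and mesenchymal transcripts. Without the block, the same 6 libraries gave 0 acinar calls, as did every other fit without 1 library. Mesenchymal calls ranged from 0 to 3 over the fits without 1 library. The cause of the blocked calls was not tested. With all 7 libraries the 7 acinar markers with an adjusted p had a median of -0.59. Without the 2 deepest libraries Iapp (0.0918) and Mboat4 (0.356) did not pass.

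Acinar markers (8 genes) took 0.000364% to 0.0210% of the control counts and 0.00201% to 0.0117% of the KO counts. Endothelial, leukocyte, mesenchymal and Schwann markers each took at most 0.00716% of the counts in any library. Neither acinar, endothelial, mesenchymal nor Schwann markers held a call in DESeq2, edgeR or limma voom with all 7 libraries, and at an unadjusted p under 0.05 there was 1, an endothelial marker, in DESeq2 and 0 in edgeR.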

How the data were processed

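Per the labels' protocols, tomato-positive sorted cells gave RNA (Qiagen RNeasy Micro) for stranded total RNA libraries (Takara SMARTer, Pico input). Other label fields give both polyA RNA and ribosomal depletion, so the RNA fraction behind the counts is not settled. The deposited values are raw read counts per gene. The submitters' processing notes name FastQC, STAR, featureCounts, DESeq2 and mm10, and versions and counting settings are not given in the sources used here. Even numbers made up 84.4% to 88.9% of counts from 1 to 10, so both mates of a fragment appear to have been counted and count-based errors cover counting only.

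The main test was the DESeq2 (1.42.0) Wald test on all 7 libraries without a batch term, as the series' design text states, at an adjusted p of 0.05. edgeR (4.0.16) quasi-likelihood and limma (3.58.1) voom were run beside it, and scripts were tested on simulated data. Coordinates and exon lengths come from GENCODE M21 (GRCm38), matched to all 55536 genes, and upstream sequences from RefSeq (GRCm38.p6), 1 chromosome not used. The members and lists were chosen with earlier results of these data known. Named genes are the members, every list gene past the threshold, relatives, partners and targets of members, and the 3 genes nearest in pattern to each member with a mean of at least 100 normalized counts. Some list genes are counted in the list totals but not reported here by name.

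Column names number the KO libraries 1, 2 and 4, whereas the KO titles are numbered 1, 2 and 3. Deviations from group means correlated at 0.29, 0.283 and 0.48 between libraries with the same column number over 12766 genes, so these numbers were taken to pair 6 libraries. Control 3 and KO 2, with different numbers, reached 0.377, above the values of 0.29 and 0.283. The 0.48 was between control 4 and the unnumbered KO library, the 2 deepest, so shared depth or quality cannot be told from pairing there. The pairing was taken from column names and these same data, and the fit blocked by column number rests on it.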

Additional observations from a re-analysis of the deposited data

Results flagged for a closer look

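In 5 of 36 results with values in 4 controls, 1 control stood apart from the other 3 by a gap above Dixon's 95% critical share of the group's range. For unselected and independent values, chance alone sets apart about 1 in 20, or 1.8 of 36. Of the 36 results, 29 were list genes included because DESeq2 called them in these same data. The 5 can therefore not be read as an excess over 1.8. Mlxipl had 4748 normalized counts in control 3, below the other controls. Id3 had 179 in control 2, also below, and still above all 3 KO libraries. Scd2 had 2474 in control 4, below the others. Maf had 36.6 in control 2, above the others. Cacna1d had 13918 in control 4, above the others. Control 4 is one of the 2 deepest libraries, and its part in these values was not tested.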

How the results depend on the processing

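Isl1 kept its direction under all 18 alternatives and Neurod1, Neurog3 and Rfx6 kept theirs. Over all genes the 791 DESeq2 calls became 203 in edgeR, 1380 with a term for the 2 deepest libraries (chosen after seeing the data) and 430 to 898 when 1 library was left out. Library totals turned the split of 394 higher and 397 lower into 685 and 298, and switching off Cook's and independent filtering gave 338 and 475. The member called became 0 in edgeR, 0 in the 6 paired libraries without a block, and 0 to 2 when 1 library was left out; without KO 2 the 1 member called was Mlxipl and not Isl1. The 29 list genes called became 5 in edgeR and 14 to 33 when 1 library was left out.

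With the replicate block by column number (6 libraries, added after seeing the data) there were 1009 calls over all genes, 1 member, Isl1, and 44 list genes. With the replicate block by title number (4 libraries) there were 579, 1 and 36. Among the list genes called with all 7 libraries, the column-number block ended the calls of Id1 and Spp1 and no other.

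Pax6, near 0, was negative in limma voom (-0.010), without control 1 (-0.0077), without control 3 and in the same 6 libraries with no block (-0.043), without the unnumbered KO library (-0.12), in the title-number block (-0.096), in the column-number block (-0.050), without the 2 deepest libraries (-0.049) and with a term for them (-0.020), and ranged from -0.12 to 0.091 when 1 library was left out. Rfx3 was 0.041 with library totals, and Mlxipl -0.13 in the title-number block. Causes were not tested. With 4 and 3 libraries, intervals as wide as that of Neurog3 leave changes of over 1 log2 unit undetected.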
